A study of Mus musculus with 14 samples.

Results

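Mouse counterparts of genes linked to human amyotrophic lateral sclerosis (ALS) were followed through single cells of the spinal cord. The 32 genes were taken by symbol from a list of ALS genes without Sod1, and all 32 were among the 55335 genes of the count tables. By role they were 8 RNA-binding proteins, 7 proteins of autophagy and ubiquitin, 5 of endolysosomes and membrane contacts, 7 of the cytoskeleton and axonal transport, 2 of synapse and receptor, and 3 with other roles.

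The whole spinal cord was taken at an age labelled P115-120 day, giving 14 libraries in 4 groups. SOD1G93A (3 libraries, strain B6SJL-Tg(SOD1*G93A)1Gur/J) carried the mutant human SOD1 transgene, which serves as a model of ALS. Clec7a-KO (4 libraries, strain B6.129S6-Clec7atm1Gdb/J) lacked Clec7a, a myeloid receptor for fungal beta-glucans, SOD1G93A/Clec7a-KO (4 libraries) carried both alterations, and nTg (3 libraries) carried no transgene and had Clec7a intact. The study asked what Clec7a does in the immune responses of microglia in ALS. Since the strain labels differ between groups, strain and genotype cannot be told apart, and the knockout is of the whole animal and not of microglia alone. Here "the Clec7a-intact pair" means SOD1G93A against nTg, and "the Clec7a-lacking pair" means SOD1G93A/Clec7a-KO against Clec7a-KO.

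ALS is a loss of motor neurons, and the genes linked to it fall into a few processes. RNA-binding proteins such as Tardbp (TDP-43) and Tia1 handle transcripts and gather in stress granules. Sqstm1 (p62) and Optn carry ubiquitinated cargo to autophagosomes after phosphorylation by the kinase Tbk1, and the ATPase Vcp pulls ubiquitinated proteins out of complexes. Neurofilaments, tubulin, dynactin and the kinesin Kif5a build and supply the axon.

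The 14 libraries held 108892 barcodes and 28819852 to 141204910 unique molecular identifiers (UMIs) each, and 89756 cells were kept after filters, 2558 to 10264 per library. Any pair of libraries shared 2 to 44 barcodes, at most 0.4743% of the smaller library. Over all barcodes, Clec7a was at 666 to 716 counts per 1000000 UMIs (CPM) in SOD1G93A and 12.9 to 28.4 in nTg, but at 1.61 to 2.57 in SOD1G93A/Clec7a-KO and 0.654 to 1.48 in Clec7a-KO, so each deletion label matched its counts. Sod1 was at 2137 to 3421 CPM in the 7 transgenic libraries against 109.8 to 229.8 in the other 7. Xist exceeded Ddx3y in 0 of 3 SOD1G93A, 1 of 4 SOD1G93A/Clec7a-KO, 2 of 3 nTg and 1 of 4 Clec7a-KO libraries, so sex was not balanced.

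Cells were sorted into classes by marker genes. They comprised 48079 microglia-like, 11462 endothelial-like, 7644 ependymal-like, 5808 astrocyte-like, 3908 oligodendrocyte precursor-like, 1763 mural-like, 1254 neuron-like, 781 T and NK cell-like and 640 border-associated macrophage-like cells, with 8417 cells in unnamed clusters. No class stood for mature oligodendrocytes. Chat, Slc18a3, Mnx1 and Isl1 had 0 UMIs in the 1254 neuron-like cells, which allows a share of cells with a UMI of up to 0.239%. This limits cells with a UMI and not cells that express the gene. Slc5a7, another marker of cholinergic neurons, had 18 UMIs in 16 cells. Motor neurons were thus not identified as such among the neuron-like cells.

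The level of a gene in a class was its share of the class's UMIs, in CPM, as the mean ± SD over the 14 libraries. For neuron-like, T and NK cell-like and border-associated macrophage-like cells, where some libraries held under 20 cells, all cells were pooled and the 95% exact Poisson interval is given, which covers counting error only. Among the 9 named classes, that of highest level was neuron-like for 14 of 32 members, oligodendrocyte precursor-like for 6, ependymal-like for 4, microglia-like for 3, astrocyte-like for 2, and endothelial-like, mural-like and T and NK cell-like for 1 each. No member (0 of 32) was at least 5 times higher in its top class than in the next. In 28 of 32 the libraries of the top class overlapped those of the next class, and the 4 without overlap were Chmp2b, Anxa11, Unc13a and Chchd10. These ranges took in every library unpooled, down to a neuron-like library of 5 cells and 11276 UMIs. Lows of 0 CPM in neuron-like cells, as for Kif5a and Stmn2, can reflect few counts. Overlap in the small classes thus does not show similar levels. Ranking by the share of cells with a UMI, after thinning each cell to 1000 UMIs, gave the same top class for 25 of 32.

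**Figure D1:**
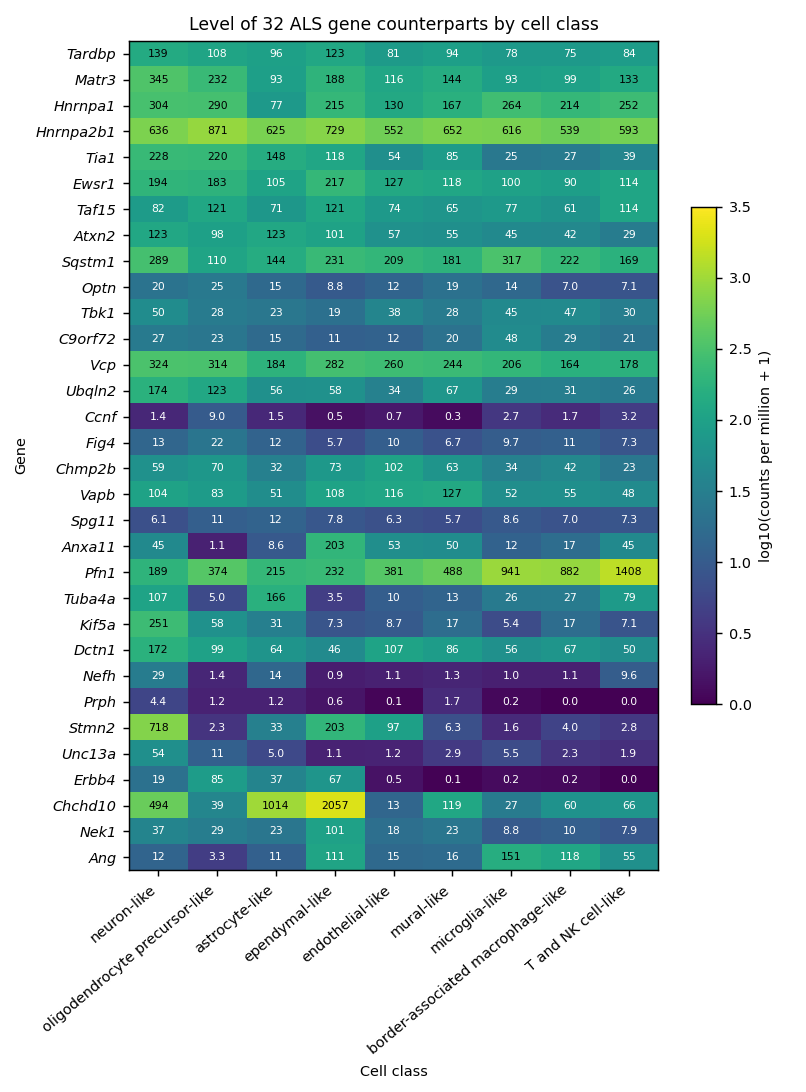
Levels of the 32 members (vertical axis, by role) in 9 cell classes (horizontal axis). The number in each field is the level in CPM and the colour is log10 of the level plus 1, brighter for higher. Stmn2, Kif5a and Unc13a are brightest in neuron-like cells and Anxa11 and Chchd10 in ependymal-like cells, while Vcp is bright in all classes.

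Kif5a, Unc13a, Stmn2, Nefh and Prph were highest in neuron-like cells. Kif5a, the kinesin heavy chain of axonal transport, was at 251 CPM (243 to 259) in pooled neuron-like cells against 57.6 ± 23.3 (SD, n = 14) in oligodendrocyte precursor-like cells and 5.44 ± 3.89 (SD, n = 14) in microglia-like cells. Unc13a, which primes synaptic vesicles for release, was at 53.8 CPM (50.1 to 57.8) in neuron-like cells and 10.8 ± 3.43 (SD, n = 14) in oligodendrocyte precursor-like cells. Stmn2, a regulator of axonal microtubules whose transcript TDP-43 protects from missplicing in human neurons, was at 718 CPM (704 to 732) in neuron-like cells. Its next class was ependymal-like, at 203 ± 56.2 CPM (SD, n = 14). Nefh, the heavy neurofilament subunit, was at 28.5 CPM (25.8 to 31.5) in neuron-like cells and 13.6 ± 11.1 (SD, n = 14) in astrocyte-like cells, and Prph, the intermediate filament peripherin, stayed low even in neuron-like cells at 4.43 CPM (3.40 to 5.68).

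Ependymal-like cells, the ciliated lining of the central canal, led for Chchd10, Anxa11, Nek1 and Ewsr1. Chchd10, a protein of the mitochondrial intermembrane space, was at 2057 ± 432 CPM (SD, n = 14) there and at 1014 ± 172 (SD, n = 14) in astrocyte-like cells, but at 13.4 ± 7.06 (SD, n = 14) in endothelial-like and 27.5 ± 13.1 (SD, n = 14) in microglia-like cells. Anxa11, an annexin that tethers RNA granules to lysosomes, was at 203 ± 60.5 CPM (SD, n = 14) in ependymal-like and 52.8 ± 16.2 (SD, n = 14) in endothelial-like cells, against 1.09 ± 0.758 (SD, n = 14) in oligodendrocyte precursor-like cells. Nek1, a kinase of the DNA damage response and cilia, was at 101 ± 9.14 CPM (SD, n = 14) in ependymal-like cells and at 37.2 (34.1 to 40.6) in neuron-like cells.

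Microglia-like cells led for Sqstm1, C9orf72 and Ang. C9orf72, which forms a complex with Smcr8 and Wdr41, was at 48.3 ± 7.39 CPM (SD, n = 14) in microglia-like cells and at 28.5 (23.9 to 33.7) in pooled border-associated macrophage-like cells. Every other class was at 26.8 CPM or below. Ang, the secreted ribonuclease angiogenin, was at 151 ± 37.7 CPM (SD, n = 14) in microglia-like and at 118 in pooled border-associated macrophage-like cells. It was at 111 ± 35.5 CPM (SD, n = 14) in ependymal-like and at 10.9 ± 15.1 (SD, n = 14) in astrocyte-like cells. Sqstm1 was at 317 ± 86.3 CPM (SD, n = 14) in microglia-like cells, but the neuron-like level of 289 CPM (280.0 to 298) lay within that spread.

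The RNA-binding members ranged from nearly even to clearly uneven levels across classes. Hnrnpa2b1, a splicing and RNA transport factor, ranged from 871 ± 177 CPM (SD, n = 14) in oligodendrocyte precursor-like cells to 539 (518 to 560.3) in pooled border-associated macrophage-like cells. Tardbp, the gene of TDP-43, was at 139 CPM (133 to 145) in neuron-like, 123 ± 11.2 (SD, n = 14) in ependymal-like and 77.6 ± 17.2 (SD, n = 14) in microglia-like cells. Hnrnpa1 was at 304 CPM (295 to 313) in neuron-like and 77.5 ± 19.1 (SD, n = 14) in astrocyte-like cells. Tia1, which nucleates stress granules, had the largest ratio of highest to lowest class among them. It was at 228 CPM (220.2 to 236) in neuron-like and 220 ± 31.0 (SD, n = 14) in oligodendrocyte precursor-like cells but only 24.5 ± 7.07 (SD, n = 14) in microglia-like cells.

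Neuron-like cells numbered 322 in nTg, 479 in Clec7a-KO, 259 in SOD1G93A and 194 in SOD1G93A/Clec7a-KO, and some libraries held too few for a test. The class joined a cluster of 1005 cells led by Sst and Scg2 with a cluster of 249 cells led by Pkd2l1. Their median depths were 0.569 and 2.04 relative to the library median, so pooled values mix both clusters. Pooled levels of neuron-like cells are given with counting error only. Stmn2 was at 870.4 CPM (843 to 899) in nTg, 671 (640.0 to 702) in SOD1G93A, 646 (625 to 668) in Clec7a-KO and 643 (605 to 682) in SOD1G93A/Clec7a-KO. Kif5a was at 269 CPM (254 to 286), 247 (229 to 267), 252 (239 to 266) and 207 (186 to 230) in the same order, and Nefh at 25.6 (21.0 to 30.9), 32.3 (25.9 to 39.8), 32.1 (27.5 to 37.3) and 18.7 (12.8 to 26.4). Tardbp lay between 113 CPM (97.4 to 130) in SOD1G93A/Clec7a-KO and 151 (137 to 167) in SOD1G93A. Fewer cells of a type and less RNA per cell cannot be told apart in such pooled values.

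Differences between groups were tested in the 6 classes in which every library held at least 20 cells. UMIs of a class were summed per library and fitted across all genes with edgeR's quasi-likelihood test, and a member was called at a Benjamini-Hochberg adjusted p under 0.05. Class totals per library were 10397862 to 96314862 UMIs in microglia-like, 145986 to 5545629 in astrocyte-like and 601169 to 3570822 in oligodendrocyte precursor-like cells. In these tests CPM are scaled by edgeR's library factors and so differ from the levels above, at times widely. Unscaled, Sqstm1 ran from 236 to 497 CPM over microglia-like libraries, a narrower range than its scaled values below. Levels within single clusters and summed levels of markers are unscaled. Of 32 members, 24 were called in at least 1 class and contrast, in 52 combinations of gene, class and contrast. Tardbp, Ewsr1, Atxn2, Ubqln2, Chmp2b, Spg11 and Nek1 were called in none, and Prph failed the low-count filter in all 6 classes and was not tested.

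In microglia-like cells, 8 of 31 members tested (25.8%) were called in the Clec7a-intact pair, 4 higher and 4 lower, where 20.1% of all 16324 genes were called higher and 13.5% lower. In the Clec7a-lacking pair 15 of 31 (48.4%) were called, 8 higher and 7 lower, against a background of 26% higher and 21.1% lower. The members' shares were thus near those of all genes. The members' median log2 fold change was 0.24 in the first pair and 0.14 in the second, beside 0.01 and 0.00 over all genes. The 2 pairs share no library. Called in both were 7 members, which are 87.5% of the first list and 46.7% of the second, namely Hnrnpa2b1, Optn, Dctn1, Nefh, Stmn2, Erbb4 and Chchd10. All 16 members called in either pair had the same sign in both, as did 98.8% of the 8255 genes called in either, and genes called in both were 89.7% and 64.1% of the 2 lists over all genes.

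**Figure D2:**
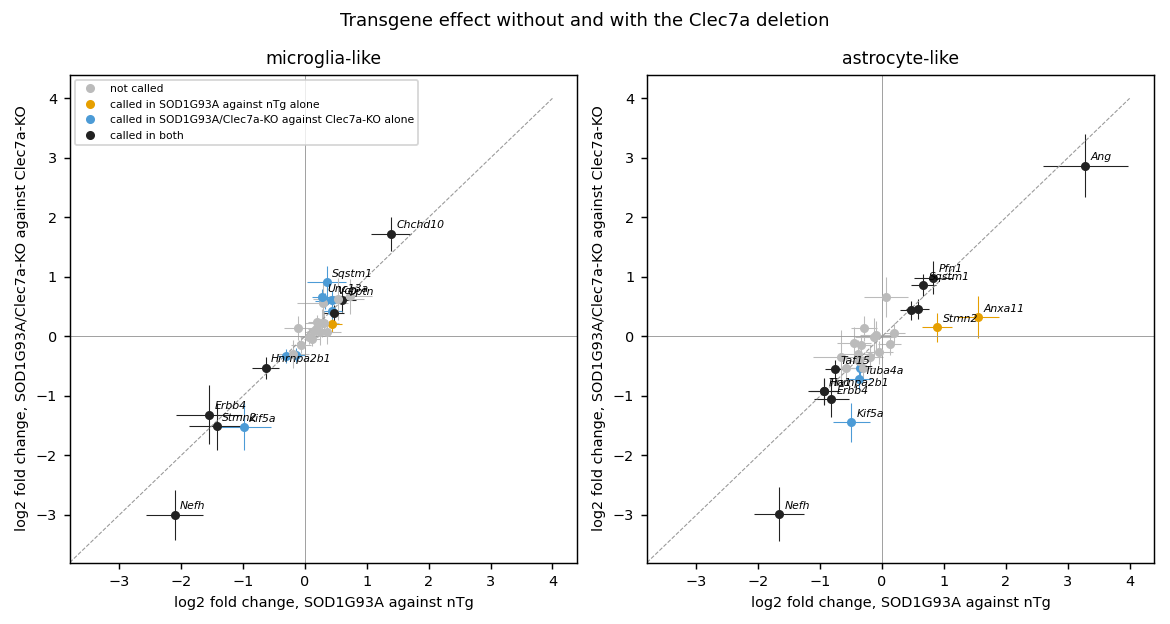
Log2 fold change of each member in the Clec7a-intact pair (horizontal axis) against that in the Clec7a-lacking pair (vertical axis), in microglia-like and astrocyte-like cells, with bars of 1 SE, colours for the pair in which a member was called, a dashed line of equal change, and names only for called members at or beyond 0.6 in either direction. Nefh and Stmn2 sit at the lower left and Chchd10 at the upper right of the microglia-like panel.

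Among RNA-binding members, Hnrnpa2b1 (chr6:51460932-51469894, minus strand) fell in microglia-like cells of both pairs. Its level was 723, 707 and 705 CPM in the nTg libraries, 348, 523 and 504 in SOD1G93A, 645, 749, 689 and 714 in Clec7a-KO and 432, 336, 553 and 620.3 in SOD1G93A/Clec7a-KO. All 7 transgenic libraries lay below all 7 others. The change was log2 fold change -0.63, SE 0.21, adjusted p = 0.0336 in the Clec7a-intact pair and -0.53, SE 0.19, adjusted p = 0.0304 in the Clec7a-lacking pair. The first call was lost under no filter on low counts, the library number as covariate or the Xist covariate or without SOD1G93A replicate 1 or any nTg library (adjusted p 0.0578 to 0.134), and the second was lost under Leiden resolution 0.5 or without Clec7a-KO replicate 2 or 3 (adjusted p 0.0501 to 0.0714). Unscaled, Hnrnpa2b1 was at 712 ± 160.4 CPM (SD over 14 libraries) in the microglial cluster led by Crybb1 and P2ry12. In the cluster led by Tsix and Xist it was at 836 ± 133 CPM (SD over 5 libraries). These clusters held 43.4% ± 41.1 and 49.4% ± 41.9 (SD, n = 3) of microglia-like cells in nTg. In Clec7a-KO they held 71.4% ± 34.0 and 19.2% ± 37.8 (SD, n = 4). Hnrnpa2b1 was at 296 to 537 CPM in the clusters that held most transgenic microglia.

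Tia1 (chr6:86404219-86433405, plus strand) fell in the Clec7a-lacking pair. It measured 23.4, 28.3 and 24.9 CPM in the nTg libraries, 20.4, 21.2 and 20.7 in SOD1G93A, 27.3, 23.4, 27.1 and 30.4 in Clec7a-KO and 23.0, 19.9, 23.0 and 20.0 in SOD1G93A/Clec7a-KO. Transgenic and other libraries did not overlap in either pair, although the gap was small. For Tia1 edgeR gave a log2 fold change -0.33, SE 0.11, adjusted p = 0.0256 in the Clec7a-lacking pair and -0.30, SE 0.13, adjusted p = 0.0844 in the other, and the call was lost under no filter on low counts or without Clec7a-KO replicate 1 or 4 (adjusted p 0.0516 to 0.11). In the Clec7a-intact pair a call was made under RLE size factors, Leiden resolution 0.5 or DESeq2 or without any SOD1G93A/Clec7a-KO library (adjusted p 0.022 to 0.0445).

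Of the autophagy and ubiquitin members, Vcp (chr4:42979963-43000507, minus strand) rose in the Clec7a-lacking pair. Its level was 169, 156 and 167 CPM in the nTg libraries, 239, 213 and 211 in SOD1G93A, 162, 153, 157 and 238 in Clec7a-KO and 229, 278, 291 and 289.6 in SOD1G93A/Clec7a-KO. Every transgenic library exceeded every nTg library, and 1 library, Clec7a-KO replicate 4, stood among the transgenic ones. For Vcp edgeR gave a log2 fold change 0.61, SE 0.15, adjusted p = 0.00404 in the Clec7a-lacking pair, for which no alternative ended the call, and 0.43, SE 0.17, adjusted p = 0.0678 in the Clec7a-intact pair. In that pair a call was made under the library number as covariate or Leiden resolution 0.5 or without Clec7a-KO replicate 4 (adjusted p 0.00767 to 0.0429), and Clec7a-KO libraries enter the same fit. The replicate block made a call there too.

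Sqstm1 (chr11:50199366-50210827, minus strand), the p62 cargo receptor, followed with a wider spread. It was at 336, 219.6 and 231 CPM in the nTg libraries, 279, 368 and 356 in SOD1G93A, 196, 221, 207 and 354 in Clec7a-KO and 276, 325, 597 and 636 in SOD1G93A/Clec7a-KO. Replicates 3 and 4 of SOD1G93A/Clec7a-KO were the highest of all 14 libraries, and nTg replicate 1 and Clec7a-KO replicate 4 lay within the transgenic range. Sqstm1 rose in the Clec7a-lacking pair (log2 fold change 0.91, SE 0.28, adjusted p = 0.0149) and the call was lost without SOD1G93A/Clec7a-KO replicate 3 or 4 (adjusted p 0.0622 to 0.0654). Without Clec7a-KO replicate 4 the change was 1.14. The Clec7a-intact pair gave 0.35, SE 0.32, adjusted p = 0.415, and a call there was made under the library number as covariate (adjusted p = 0.00853).

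Optn (chr2:5020642-5064051, minus strand), the optineurin receptor, rose in both pairs at low levels. It was at 15.1, 8.13 and 12.7 CPM in the nTg libraries, 17.6, 19.1 and 18.2 in SOD1G93A, 10.0, 15.3, 9.70 and 8.93 in Clec7a-KO and 18.2, 18.8, 15.9 and 14.6 in SOD1G93A/Clec7a-KO. The SOD1G93A range lay above all nTg libraries, while Clec7a-KO replicate 2 reached into the SOD1G93A/Clec7a-KO range. Changes were log2 fold change 0.61, SE 0.22, adjusted p = 0.0494 and 0.61, SE 0.20, adjusted p = 0.0189. Of the 2 calls, the first was lost under RLE size factors, no filter on low counts, the library number as covariate, the Xist covariate, doublets kept, Leiden resolution 0.5 or DESeq2 or without any SOD1G93A library, any SOD1G93A/Clec7a-KO library, nTg replicate 2 or 3 or Clec7a-KO replicate 1 or 3 (adjusted p 0.0543 to 0.187), and the second was lost under doublets kept or Leiden resolution 0.5 or without SOD1G93A/Clec7a-KO replicate 1, 2 or 3 or Clec7a-KO replicate 1 or 3 (adjusted p 0.0532 to 0.0844).

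Tbk1 (chr10:121546455-121586787, minus strand), the kinase upstream of both receptors, moved the other way. It was at 46.4, 47.0 and 51.6 CPM in the nTg libraries, 43.3, 43.6 and 44.4 in SOD1G93A, 42.9, 49.2, 51.6 and 37.6 in Clec7a-KO and 42.1, 37.1, 32.2 and 34.3 in SOD1G93A/Clec7a-KO. The SOD1G93A/Clec7a-KO libraries were the lowest group, with an overlap from Clec7a-KO replicate 4. Tbk1 fell in the Clec7a-lacking pair (log2 fold change -0.32, SE 0.12, adjusted p = 0.0431), a call that was lost under no filter on low counts, the Xist covariate, doublets kept or Leiden resolution 0.5 or without SOD1G93A/Clec7a-KO replicate 3 or 4, any nTg library or Clec7a-KO replicate 1, 2 or 3 (adjusted p 0.054 to 0.134), and the Clec7a-intact pair gave -0.14, SE 0.14, adjusted p = 0.449.

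C9orf72 (chr4:35191285-35226175, minus strand) rose in the Clec7a-intact pair. It was at 49.3, 35.8 and 41.9 CPM in the nTg libraries, 46.6, 65.1 and 60.5 in SOD1G93A, 40.7, 49.5, 44.7 and 41.0 in Clec7a-KO and 48.7, 51.3, 46.7 and 56.0 in SOD1G93A/Clec7a-KO. SOD1G93A replicates 2 and 3 were the highest 2 libraries, and replicate 1 lay below nTg replicate 1. The rise was log2 fold change 0.44, SE 0.15, adjusted p = 0.04, and the call was lost under RLE size factors, no filter on low counts or DESeq2 or without SOD1G93A replicate 2 or 3, any SOD1G93A/Clec7a-KO library or nTg replicate 2 or 3 (adjusted p 0.0573 to 0.259). The replicate block also ended this call. The Clec7a-lacking pair gave 0.20, SE 0.13, adjusted p = 0.222.

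**Figure D3:**
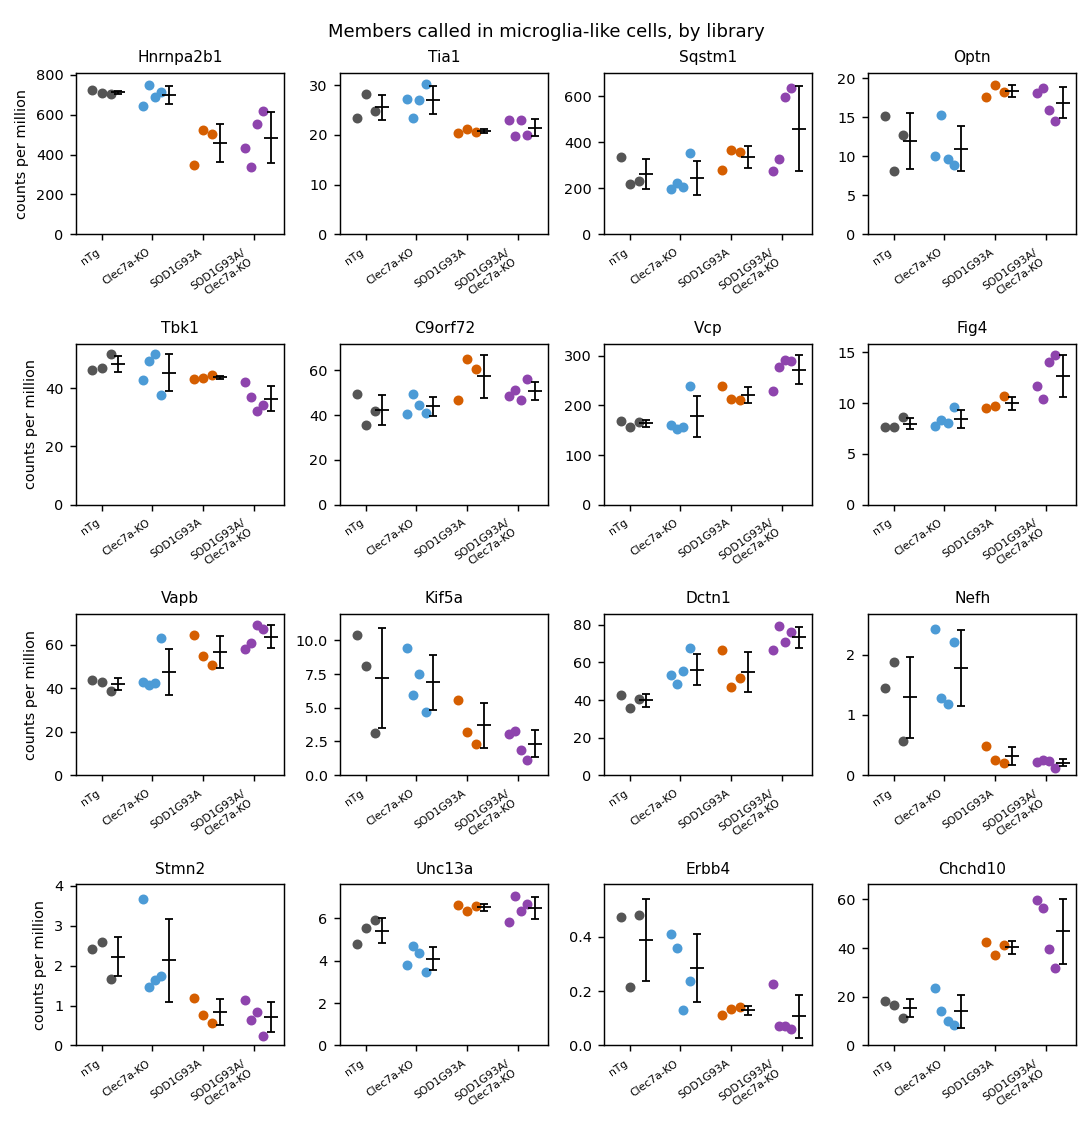
Normalised level in CPM (linear vertical axis from 0) of the 16 members called in microglia-like cells, 1 point per library in the 4 groups, with mean ± SD beside the points. For Hnrnpa2b1 and Nefh the transgenic points lie below all others, and for Chchd10 above.

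Of the 5 members of endolysosomes and membrane contacts, Fig4 and Vapb rose in the Clec7a-lacking pair, and Chmp2b, Spg11 and Anxa11 were not called in microglia-like cells. Fig4 (chr10:41188172-41303260, minus strand), a lipid phosphatase that sets endolysosomal phosphoinositides, was at 7.67, 7.64 and 8.63 CPM in the nTg libraries, 9.47, 9.76 and 10.7 in SOD1G93A, 7.72, 8.34, 8.05 and 9.65 in Clec7a-KO and 11.6, 10.4, 14 and 14.7 in SOD1G93A/Clec7a-KO. All 4 SOD1G93A/Clec7a-KO libraries were above all 10 others except that SOD1G93A replicate 3 exceeded replicate 2. For Fig4 edgeR gave a log2 fold change 0.59, SE 0.14, adjusted p = 0.00279, for which no alternative ended the call, against 0.33, SE 0.16, adjusted p = 0.12 in the Clec7a-intact pair, where a call was made under the library number as covariate (adjusted p = 0.00527).

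Vapb (chr2:173737511-173784336, plus strand), an anchor of contacts between the endoplasmic reticulum and other membranes, was at 43.8, 42.9 and 38.8 CPM in the nTg libraries, 64.7, 54.7 and 50.6 in SOD1G93A, 42.6, 41.6, 42.5 and 63.0 in Clec7a-KO and 57.8, 60.8, 68.9 and 67.4 in SOD1G93A/Clec7a-KO. Transgenic libraries were above all nTg libraries, and Clec7a-KO replicate 4 again lay in the transgenic range. The change was log2 fold change 0.43, SE 0.14, adjusted p = 0.0232 in the Clec7a-lacking pair and 0.44, SE 0.16, adjusted p = 0.0524 in the Clec7a-intact pair. The call was lost under Leiden resolution 0.5 or without SOD1G93A/Clec7a-KO replicate 3 or 4 or Clec7a-KO replicate 1, 2 or 3 (adjusted p 0.0688 to 0.097). For the Clec7a-intact pair a call was made under the library number as covariate or without Clec7a-KO replicate 4 (adjusted p 0.00933 to 0.012), and also under the replicate block.

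Nefh and Stmn2 fell in transgenic microglia-like cells of both pairs and Kif5a in those of the Clec7a-lacking pair, all at low levels. Nefh (chr11:4938754-4948064, minus strand) was at 1.45, 1.88 and 0.559 CPM in the nTg libraries, 0.486, 0.257 and 0.195 in SOD1G93A, 2.44, 1.29, 1.19 and 2.21 in Clec7a-KO and 0.225, 0.253, 0.235 and 0.121 in SOD1G93A/Clec7a-KO. All transgenic libraries were below all others, and the change was log2 fold change -2.11, SE 0.46, adjusted p = 0.00278 in the Clec7a-intact and -3.00, SE 0.42, adjusted p = 5.82e-05 in the Clec7a-lacking pair. In both pairs no alternative ended the call.

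Kif5a (chr10:127225696-127263348, minus strand) was at 10.4, 8.08 and 3.12 CPM in the nTg libraries, 5.57, 3.18 and 2.31 in SOD1G93A, 9.40, 5.91, 7.52 and 4.66 in Clec7a-KO and 3.06, 3.29, 1.86 and 1.15 in SOD1G93A/Clec7a-KO. The 2 groups of the Clec7a-lacking pair did not overlap and those of the Clec7a-intact pair did. Kif5a fell in the Clec7a-lacking pair (log2 fold change -1.52, SE 0.39, adjusted p = 0.00595), for which no alternative ended the call, and the Clec7a-intact pair gave -0.99, SE 0.44, adjusted p = 0.0978. A call in the latter was made under the library number as covariate, doublets kept or Leiden resolution 0.5 or without SOD1G93A replicate 1 or nTg replicate 3 (adjusted p 0.00103 to 0.0397), and also under the replicate block.

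Stmn2 lay between 0.243 and 3.67 CPM in all libraries and fell in both pairs (log2 fold change -1.42, SE 0.45, adjusted p = 0.0255, and -1.51, SE 0.40, adjusted p = 0.00664). The first Stmn2 call was lost without SOD1G93A replicate 2 or 3 or nTg replicate 1 or 2 (adjusted p 0.0739 to 0.0861). Erbb4, a neuregulin receptor, lay between 0.0607 and 0.479 CPM and also fell in both (-1.55, SE 0.53, adjusted p = 0.036, and -1.31, SE 0.50, adjusted p = 0.0417). The first Erbb4 call was lost under no filter on low counts, the Xist covariate, doublets kept or Leiden resolution 0.5 or without any SOD1G93A library or nTg replicate 1 or 3 (adjusted p 0.0543 to 0.168), and the second was lost under no filter on low counts, doublets kept, Leiden resolution 0.5 or DESeq2 or without SOD1G93A/Clec7a-KO replicate 2, 3 or 4, nTg replicate 1 or 3 or Clec7a-KO replicate 1 or 2 (adjusted p 0.0529 to 0.465).

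Markers of neurons moved with these members. The summed level of 10 neuron markers in microglia-like cells was 17.6 to 24.4 CPM in nTg, 18.5 to 32.1 in Clec7a-KO, 6.89 to 10.6 in SOD1G93A and 3.90 to 8.55 in SOD1G93A/Clec7a-KO. Of the 10, 2 were called lower in the Clec7a-intact pair and 7 in the Clec7a-lacking pair, 0 were called higher and none was at 0 in all groups. The part of neuron markers in the fall of Nefh, Kif5a, Stmn2 and Erbb4 was not tested. Erbb4 was highest in oligodendrocyte precursor-like cells, at 85.2 CPM. In microglia-like cells the 7 precursor markers summed to 4.68 to 6.16 CPM in nTg and 3.59 to 13.5 in Clec7a-KO. In SOD1G93A they summed to 22.6 to 50.3 and in SOD1G93A/Clec7a-KO to 26.3 to 64.8. The 8 oligodendrocyte markers summed to 131 to 139, 108 to 144, 66.5 to 108 and 74.7 to 94.8 in the same order. Their part in the fall of Erbb4 was not tested.

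Dctn1, the largest dynactin subunit, and Unc13a were the remaining members called in microglia-like cells besides Chchd10. Dctn1 was at 36.0 to 42.6 CPM in nTg, 46.7 to 66.9 in SOD1G93A, 48.5 to 67.7 in Clec7a-KO and 66.7 to 79.5 in SOD1G93A/Clec7a-KO, a rise of log2 fold change 0.47, SE 0.16, adjusted p = 0.0334 and 0.39, SE 0.14, adjusted p = 0.0312 in the 2 pairs. The first Dctn1 call was lost under no filter on low counts or the Xist covariate or without SOD1G93A replicate 1 or 3, any SOD1G93A/Clec7a-KO library or nTg replicate 2 or 3 (adjusted p 0.0547 to 0.224), and the second was lost under no filter on low counts or without SOD1G93A replicate 3, SOD1G93A/Clec7a-KO replicate 2, 3 or 4 or Clec7a-KO replicate 1, 2 or 3 (adjusted p 0.0601 to 0.119). Unc13a was at 4.78 to 5.91 CPM in nTg, 6.33 to 6.61 in SOD1G93A, 3.48 to 4.69 in Clec7a-KO and 5.83 to 7.05 in SOD1G93A/Clec7a-KO, with log2 fold change 0.66, SE 0.14, adjusted p = 0.00155 in the Clec7a-lacking pair, where no alternative ended the call, and 0.27, SE 0.16, adjusted p = 0.201 in the other.

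Chchd10 (chr10:75933130-75937747, plus strand), given here in full because of its values, had the largest rise of any member in microglia-like cells. It was at 18.2, 16.5 and 11.3 CPM in the nTg libraries, 42.4, 37.3 and 41.2 in SOD1G93A, 23.6, 14, 10.1 and 8.54 in Clec7a-KO and 59.8, 56.5, 39.8 and 31.8 in SOD1G93A/Clec7a-KO. Every transgenic library exceeded every other library. For Chchd10 edgeR gave a log2 fold change 1.39, SE 0.33, adjusted p = 0.00475 and 1.73, SE 0.29, adjusted p = 0.000222 in the 2 pairs, and the first call was lost under Leiden resolution 0.5 (adjusted p = 0.0567). Chchd10 is most abundant in ependymal-like and astrocyte-like cells. In microglia-like cells the 8 ependymal markers summed to 12.7 to 25.3 CPM in nTg, 9.50 to 17.3 in Clec7a-KO, 5.51 to 7.66 in SOD1G93A and 4.36 to 16.5 in SOD1G93A/Clec7a-KO, and the 9 astrocyte markers to 198 to 261, 173 to 378, 136 to 176 and 96.1 to 174 in the same order. Of the 8 ependymal markers 0 were called higher and 1 lower in the Clec7a-intact pair, and 1 higher and 0 lower in the other. Of the 9 astrocyte markers 2 were called higher and 1 lower, and then 1 and 5. Their part in the rise of Chchd10 was not tested.

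Within microglia, Ccnf marked a single cluster, and Chchd10 was highest in 1 cluster but graded over the others. Chchd10 was at 92.2 ± 18.1 CPM (SD over 7 libraries) in the cluster led by Gpnmb and Atp6v0d2 and at 15.1 to 46.7 in the others. Among these it was at 46.7 in the cluster led by Olr1, 35.6 in that led by Apoe, 28.8 in that led by Ifit2 and 16.5 in that led by Crybb1. Ccnf, the cyclin F substrate receptor of a ubiquitin ligase, was at 46.9 ± 13 CPM (SD over 8 libraries) in the cluster led by Mki67 and at 0.551 to 1.37 in the others. These levels describe clusters built from the same cells and carry no test.

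In astrocyte-like cells, 12 of 30 members tested (40%) were called in the Clec7a-intact pair, 7 higher and 5 lower, where 17.4% of all 12838 genes were called higher and 15.2% lower. In the Clec7a-lacking pair 13 of 30 (43.3%) were called, 5 higher and 8 lower, against 18.6% and 15.6%. The members' median log2 fold change was -0.30 and -0.20 in the 2 pairs, beside -0.01 and -0.04 over all genes. Called in both were 10 members, 83.3% of the first list and 76.9% of the second. All 15 members called in either pair had the same sign in both, as did 98.7% of the 5463 genes called in either, and over all genes those called in both were 74.3% and 70.9% of the 2 lists. The astrocyte-like class changed its makeup: the cluster led by Gfap and A2m held 9.83% ± 2.38 (SD, n = 3) of it in nTg and 9.28% ± 2.32 (SD, n = 4) in Clec7a-KO, but 69.4% ± 11.6 (SD, n = 3) in SOD1G93A and 75.0% ± 13.6 (SD, n = 4) in SOD1G93A/Clec7a-KO. Class totals ran from 35 cells in SOD1G93A/Clec7a-KO replicate 4 to 1107 cells in Clec7a-KO replicate 1.

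Of the 8 RNA-binding members, Tia1, Hnrnpa2b1 and Taf15 fell in astrocyte-like cells of both pairs and Matr3 in those of the Clec7a-lacking pair, Hnrnpa1 rose in both, and Tardbp, Ewsr1 and Atxn2 were not called. Tia1 was at 201, 199.7 and 221 CPM in the nTg libraries, 103, 113 and 107 in SOD1G93A, 180.0, 187, 221 and 166 in Clec7a-KO and 123, 59.6, 133 and 66.0 in SOD1G93A/Clec7a-KO. All 7 transgenic libraries were below all 7 others. For Tia1 edgeR gave a log2 fold change -0.95, SE 0.22, adjusted p = 0.00347 and -0.92, SE 0.21, adjusted p = 0.00191 in the 2 pairs, and in both no alternative ended the call.

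Hnrnpa2b1 was at 1069, 800.2 and 713 CPM in the nTg libraries, 329, 531 and 481 in SOD1G93A, 802, 890.3, 746 and 736 in Clec7a-KO and 439, 239, 534 and 482 in SOD1G93A/Clec7a-KO. Here too no transgenic library reached the level of any other library. Changes were log2 fold change -0.94, SE 0.26, adjusted p = 0.00932 and -0.92, SE 0.23, adjusted p = 0.00424. The first call was lost without nTg replicate 1 (adjusted p = 0.0526), and for the second no alternative ended the call.

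Taf15 (chr11:83473086-83506743, plus strand), a partner of RNA polymerase II in the family of Ewsr1, was at 97.0, 85.3 and 86.5 CPM in the nTg libraries, 59.5, 47.9 and 51.8 in SOD1G93A, 86.0, 89.2, 81.9 and 73.2 in Clec7a-KO and 63.9, 46.9, 50.9 and 72.6 in SOD1G93A/Clec7a-KO. The 2 sets of libraries did not overlap, although SOD1G93A/Clec7a-KO replicate 4 came within 1 CPM of Clec7a-KO replicate 4. Changes were log2 fold change -0.76, SE 0.17, adjusted p = 0.00215 and -0.55, SE 0.16, adjusted p = 0.0116. Of the 2 calls, the first was lost under doublets kept or the mitochondrial limit of 5% (adjusted p 0.0555 to 0.557), and the second was lost under doublets kept or the mitochondrial limit of 5% or without SOD1G93A/Clec7a-KO replicate 2 (adjusted p 0.0651 to 0.14).

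Matr3, a nuclear matrix protein, was at 92.7, 113 and 102 CPM in the nTg libraries, 80.0, 83.6 and 76.8 in SOD1G93A, 101, 114, 113 and 114 in Clec7a-KO and 84.5, 61.6, 75.5 and 92.4 in SOD1G93A/Clec7a-KO. It fell in the Clec7a-lacking pair (log2 fold change -0.53, SE 0.15, adjusted p = 0.0107), a call lost under the mitochondrial limit of 5% or without SOD1G93A/Clec7a-KO replicate 2 (adjusted p 0.0609 to 0.182). The Clec7a-intact pair gave -0.36, SE 0.16, adjusted p = 0.0884, with no overlap between its groups.

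Hnrnpa1 (chr15:103240432-103246692, plus strand), the close relative of Hnrnpa2b1, was higher and not lower. It was at 60.0, 67.9 and 60.8 CPM in the nTg libraries, 73.9, 86.2 and 97.3 in SOD1G93A, 56.9, 66.0, 74.1 and 69.6 in Clec7a-KO and 93.2, 81.1, 79.0 and 125 in SOD1G93A/Clec7a-KO. The groups of each pair did not overlap. Changes were log2 fold change 0.46, SE 0.17, adjusted p = 0.0468 and 0.44, SE 0.16, adjusted p = 0.0417. The first call was lost under RLE size factors, no filter on low counts, the Xist covariate or the mitochondrial limit of 5% or without SOD1G93A replicate 2 or 3, any nTg library or Clec7a-KO replicate 2 or 3 (adjusted p 0.0515 to 0.217), and the second was lost under no filter on low counts or the mitochondrial limit of 5% or without SOD1G93A replicate 2, SOD1G93A/Clec7a-KO replicate 1 or 4, any nTg library or Clec7a-KO replicate 1 or 2 (adjusted p 0.0547 to 0.484). The replicate block also ended the first of these calls. Hnrnpa1 has near-identical copies in the genome, so how reads were shared among them is uncertain.

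**Figure D4:**
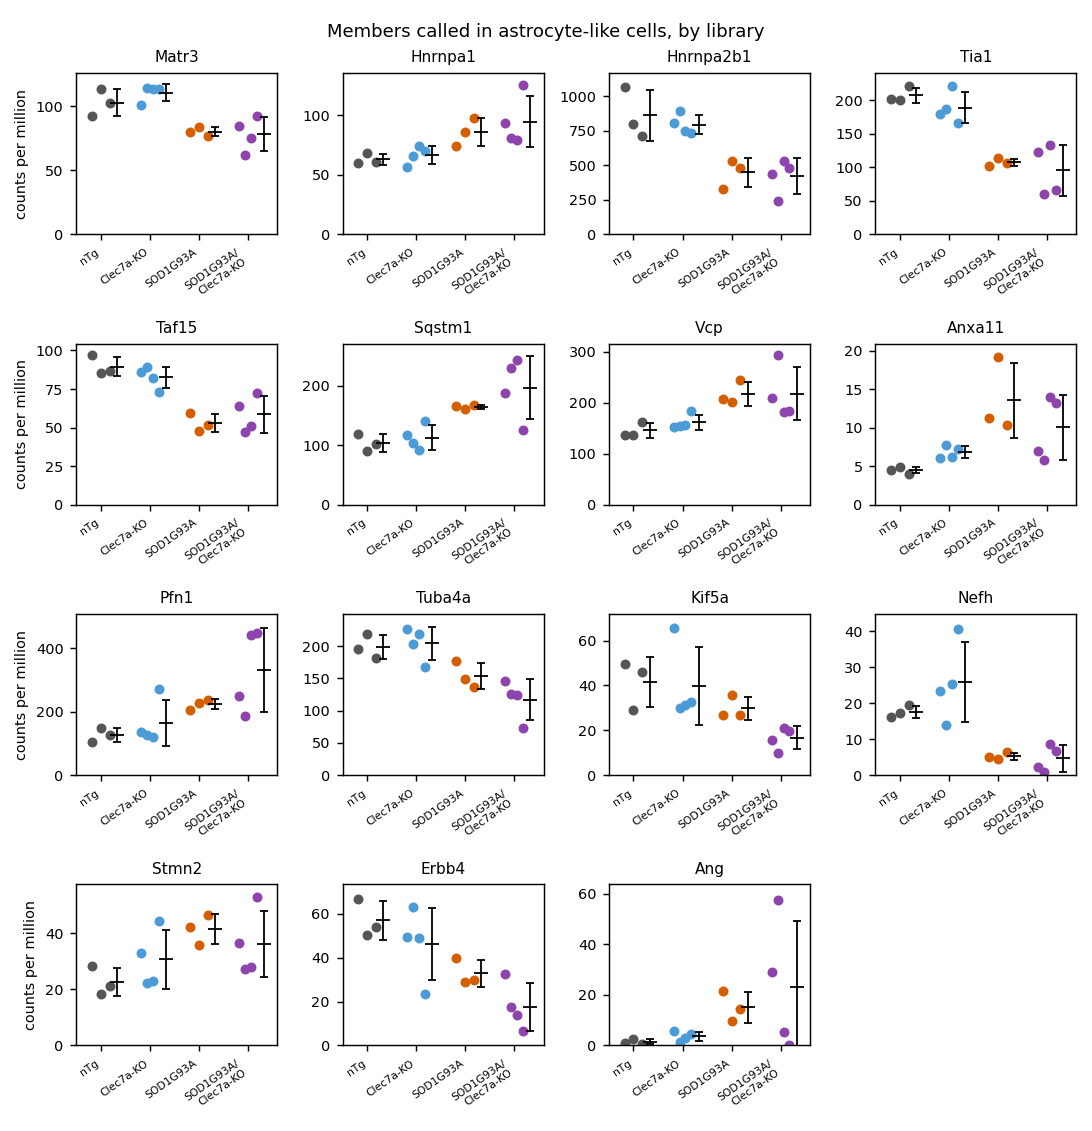
Normalised level in CPM (linear vertical axis from 0) of the 15 members called in astrocyte-like cells, 1 point per library in the 4 groups, with mean ± SD beside the points. The transgenic points of Tia1, Hnrnpa2b1 and Nefh lie below all others.

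The ubiquitin and autophagy members Sqstm1 and Vcp rose in astrocyte-like cells of both pairs. Sqstm1 was at 119, 89.9 and 103 CPM in the nTg libraries, 166, 160.2 and 167 in SOD1G93A, 117, 103, 91.2 and 140.1 in Clec7a-KO and 188, 229.6, 244 and 125 in SOD1G93A/Clec7a-KO. Transgenic libraries were above the others except SOD1G93A/Clec7a-KO replicate 4. For Sqstm1 edgeR gave a log2 fold change 0.66, SE 0.20, adjusted p = 0.0169 and 0.86, SE 0.18, adjusted p = 0.00121. Of the 2 calls, the first was lost under the Xist covariate or the mitochondrial limit of 5% or without SOD1G93A replicate 3 or nTg replicate 2 or 3 (adjusted p 0.0507 to 0.319), and the second was lost under the mitochondrial limit of 5% (adjusted p = 0.127).

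Vcp was at 137, 137 and 163 CPM in the nTg libraries, 207, 201 and 244 in SOD1G93A, 152, 155, 157 and 184 in Clec7a-KO and 210.1, 293, 183 and 185 in SOD1G93A/Clec7a-KO. SOD1G93A libraries were above all nTg libraries, and SOD1G93A/Clec7a-KO replicate 3 fell just below Clec7a-KO replicate 4. Changes were log2 fold change 0.58, SE 0.18, adjusted p = 0.022 and 0.46, SE 0.17, adjusted p = 0.039. The first call was lost under no filter on low counts, the Xist covariate or the mitochondrial limit of 5% or without SOD1G93A replicate 3 or nTg replicate 1 or 2 (adjusted p 0.0812 to 0.433), and the second was lost under no filter on low counts, the Xist covariate or the mitochondrial limit of 5% or without SOD1G93A replicate 2, SOD1G93A/Clec7a-KO replicate 2, any nTg library or Clec7a-KO replicate 1, 2 or 3 (adjusted p 0.0533 to 0.215).

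Anxa11 (chr14:25842156-25886804, plus strand) rose in the Clec7a-intact pair. It was at 4.55, 4.89 and 4.04 CPM in the nTg libraries, 11.3, 19.2 and 10.3 in SOD1G93A, 6.07, 7.73, 6.24 and 7.23 in Clec7a-KO and 7.0, 5.86, 14 and 13.2 in SOD1G93A/Clec7a-KO. SOD1G93A libraries were above all nTg and Clec7a-KO libraries, while SOD1G93A/Clec7a-KO replicates 1 and 2 lay within the Clec7a-KO range or below it. The change was log2 fold change 1.55, SE 0.34, adjusted p = 0.00196, and 0.32, SE 0.35, adjusted p = 0.515 in the Clec7a-lacking pair. No alternative that gave a value ended the Anxa11 call, but the mitochondrial limit of 5% gave none. Stmn2 was at 18.3 to 28.1 CPM in nTg, 35.7 to 46.3 in SOD1G93A, 22.2 to 44.3 in Clec7a-KO and 27.4 to 52.8 in SOD1G93A/Clec7a-KO, with log2 fold change 0.89, SE 0.24, adjusted p = 0.00948 and 0.15, SE 0.24, adjusted p = 0.681. The Stmn2 call was lost under doublets kept or without SOD1G93A replicate 3 (adjusted p 0.0699 to 0.0931).

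Anxa11 and Stmn2 are both abundant in ependymal-like cells. Ependymal markers rose in both pairs. Anxa11 and Stmn2 were called in the Clec7a-intact pair only, but the interaction test below did not show that their changes differed between pairs. The 8 ependymal markers summed to 71.8 to 83.3 CPM in astrocyte-like cells of nTg, 60.9 to 93.2 in Clec7a-KO, 223 to 261 in SOD1G93A and 95.9 to 316 in SOD1G93A/Clec7a-KO. Of the 5 tested, 3 were called higher in the Clec7a-intact and 4 in the Clec7a-lacking pair, 0 were called lower and none was at 0 in all groups. Their part in the result was not tested.

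Nefh fell in astrocyte-like cells of both pairs and Kif5a and Tuba4a in those of the Clec7a-lacking pair. Nefh was at 16.2, 17.1 and 19.5 CPM in the nTg libraries, 5.13, 4.35 and 6.33 in SOD1G93A, 23.4, 13.9, 25.3 and 40.7 in Clec7a-KO and 2.19, 0.977, 8.78 and 6.60 in SOD1G93A/Clec7a-KO. All transgenic libraries were below all others, by log2 fold change -1.67, SE 0.40, adjusted p = 0.00395 and -2.99, SE 0.46, adjusted p = 6.63e-05. In both pairs no alternative that gave a value ended the call of Nefh, but the mitochondrial limit of 5% gave none. Kif5a was at 49.8, 29.0 and 45.8 CPM in the nTg libraries, 26.7, 35.7 and 26.9 in SOD1G93A, 65.7, 29.9, 31.2 and 32.5 in Clec7a-KO and 15.8, 9.77, 21.1 and 19.8 in SOD1G93A/Clec7a-KO. It fell in the Clec7a-lacking pair (log2 fold change -1.45, SE 0.33, adjusted p = 0.00217), where the groups did not overlap and no alternative ended the call, while the Clec7a-intact pair gave -0.50, SE 0.30, adjusted p = 0.213, with a call made under doublets kept or the mitochondrial limit of 5% (adjusted p 0.000127 to 0.0153).

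Tuba4a, an alpha tubulin highest in astrocyte-like cells among the named classes, was at 182 to 219 CPM in nTg, 137 to 176 in SOD1G93A, 168 to 227 in Clec7a-KO and 72.6 to 146 in SOD1G93A/Clec7a-KO. It fell in the Clec7a-lacking pair (log2 fold change -0.72, SE 0.17, adjusted p = 0.00325), and the Clec7a-intact pair gave -0.37, SE 0.19, adjusted p = 0.136, where a call was made under the library number as covariate, doublets kept or the mitochondrial limit of 5% (adjusted p 0.00703 to 0.014). Erbb4 was at 50.1 to 66.8 CPM in nTg, 28.7 to 40.0 in SOD1G93A, 23.5 to 62.9 in Clec7a-KO and 6.60 to 32.4 in SOD1G93A/Clec7a-KO and fell in both (-0.82, SE 0.29, adjusted p = 0.0352 and -1.06, SE 0.29, adjusted p = 0.00863). The first Erbb4 call was lost under the Xist covariate or DESeq2 or without SOD1G93A replicate 2 or 3 or nTg replicate 1 or 3 (adjusted p 0.0633 to 0.137), and the second was lost under the mitochondrial limit of 5% (adjusted p = 0.453). The 10 neuron markers summed to 122 to 135 CPM in nTg, 120 to 201 in Clec7a-KO, 41.9 to 73.9 in SOD1G93A and 23.9 to 91.3 in SOD1G93A/Clec7a-KO, and 4 of the 8 tested were called lower in each pair, 0 higher and none at 0 in all groups. Nefh and Kif5a were highest in neuron-like cells, whereas Tuba4a was at 107 CPM there against 166 in astrocyte-like cells. Erbb4 was highest in oligodendrocyte precursor-like cells. The 7 precursor markers in astrocyte-like cells summed to 65.1 to 118 CPM in nTg and 55.7 to 100 in Clec7a-KO. In SOD1G93A they summed to 117 to 136 and in SOD1G93A/Clec7a-KO to 82.2 to 124. The part of neuron or precursor markers in the fall of Nefh, Kif5a, Tuba4a and Erbb4 was not tested.

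Pfn1, which binds actin monomers, and Ang rose in astrocyte-like cells of both pairs. Pfn1 was at 103 to 148 CPM in nTg, 205 to 236 in SOD1G93A, 121 to 271 in Clec7a-KO and 188 to 449 in SOD1G93A/Clec7a-KO, with Clec7a-KO replicate 4 alone among the controls above 148 CPM, and changed by log2 fold change 0.83, SE 0.31, adjusted p = 0.049 and 0.99, SE 0.28, adjusted p = 0.0105. The first Pfn1 call was lost under RLE size factors, the Xist covariate, the mitochondrial limit of 5% or DESeq2 or without any SOD1G93A library, SOD1G93A/Clec7a-KO replicate 1, any nTg library or Clec7a-KO replicate 1, 2 or 3 (adjusted p 0.0511 to 0.172), and for the second no alternative ended the call. Ang (chr14:51091150-51102009, plus strand), given in full because of its values, was at 1.14, 2.75 and 0.713 CPM in the nTg libraries, 21.5, 9.58 and 14.2 in SOD1G93A, 5.71, 1.55, 3.12 and 4.52 in Clec7a-KO and 28.9, 57.7, 5.27 and 0 in SOD1G93A/Clec7a-KO. SOD1G93A libraries were above all nTg and Clec7a-KO libraries, whereas SOD1G93A/Clec7a-KO spanned the whole range, from 0 in replicate 4, which had 35 cells, to the highest value of all. For Ang edgeR gave a log2 fold change 3.28, SE 0.69, adjusted p = 0.0015 and 2.87, SE 0.53, adjusted p = 0.000407, and the second call was lost under doublets kept (adjusted p = 0.0783). The mitochondrial limit of 5% gave no value for Ang here. Ang has near-identical copies and shares its locus with Rnase4, so its counts are uncertain.

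Microglial markers moved with these members in the astrocyte-like class. The 12 markers summed to 171 to 258 CPM in nTg, 179 to 478 in Clec7a-KO, 636 to 1563 in SOD1G93A and 917 to 3275 in SOD1G93A/Clec7a-KO, and 9 of 12 were called higher in the Clec7a-intact and 11 of 12 in the Clec7a-lacking pair, 0 lower and none at 0 in all groups. Hnrnpa1, Sqstm1, Vcp, Anxa11, Pfn1 and Ang had a higher mean level in microglia-like than in astrocyte-like cells (Hnrnpa1 at 264 ± 40.6 CPM, SD, n = 14, against 77.5 ± 19.1), and the part of microglial RNA in their rise was not tested.

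**Figure D5:**
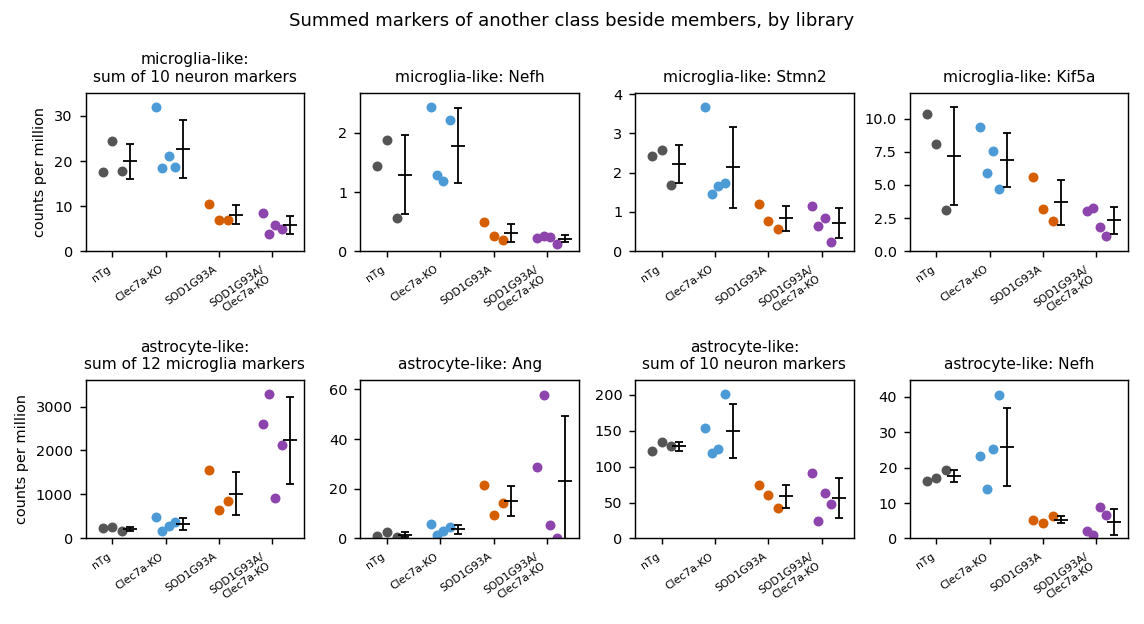
Summed level in CPM of markers of another class (linear vertical axis from 0) beside members, 1 point per library in the 4 groups with mean ± SD. In microglia-like cells the 10 neuron markers stand beside Nefh, Stmn2 and Kif5a. In astrocyte-like cells the 12 microglia markers stand beside Ang and the 10 neuron markers beside Nefh. The microglia markers are higher in every transgenic library, while Ang runs from 0 to its highest value in SOD1G93A/Clec7a-KO.

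In oligodendrocyte precursor-like cells 1 of 28 members tested was called in the Clec7a-intact pair, lower, where 1.51% of 13239 genes were called higher and 0.363% lower. In the Clec7a-lacking pair 2 were called higher and 1 lower, against 3.45% and 1.23%. The members' median log2 fold change was -0.06 and 0.02 in the 2 pairs, beside -0.02 and -0.01 over all genes.

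Chchd10 fell in precursor-like cells of both pairs, opposite to its rise in microglia-like cells. It was at 77.3, 62.7 and 42.1 CPM in the nTg libraries, 27.4, 26.7 and 18.7 in SOD1G93A, 77.9, 47.7, 43.0 and 37.6 in Clec7a-KO and 33.1, 20.7, 20.6 and 12.7 in SOD1G93A/Clec7a-KO. The groups of each pair did not overlap. For Chchd10 edgeR gave a log2 fold change -1.31, SE 0.29, adjusted p = 0.0228 and -1.16, SE 0.29, adjusted p = 0.0274. Of the 2 calls, the first was lost under the Xist covariate or doublets kept or without SOD1G93A replicate 2 or 3 or nTg replicate 1 or 2 (adjusted p 0.0621 to 0.141), and the second was lost under doublets kept or without SOD1G93A/Clec7a-KO replicate 2, 3 or 4 or Clec7a-KO replicate 1 or 2 (adjusted p 0.0551 to 0.097). The 10 neuron markers in precursor-like cells summed to 409 to 477 CPM in nTg, 420.4 to 552 in Clec7a-KO, 367 to 397 in SOD1G93A and 309.8 to 379 in SOD1G93A/Clec7a-KO. Of the 6 tested, 0 were called in the Clec7a-intact pair and 2 were called lower in the other, and none of the 10 was at 0 in all groups. The 8 ependymal markers summed to 13.2 to 30.2 CPM in nTg, 10.1 to 19.8 in Clec7a-KO, 4.56 to 15.3 in SOD1G93A and 7.10 to 22.6 in SOD1G93A/Clec7a-KO, with 0 of 2 tested called. The 9 astrocyte markers summed to 1447 to 1856, 919 to 1730, 1589 to 1642 and 958 to 1697 CPM in the same order, and 1 of 8 tested was called higher in each pair. The part of these markers in the fall was not tested.

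Ccnf (chr17:24222198-24251484, minus strand) rose in the Clec7a-lacking pair. It was at 6.64, 8.48 and 10.4 CPM in the nTg libraries, 12, 13.5 and 12.5 in SOD1G93A, 3.31, 2.71, 0 and 4.46 in Clec7a-KO and 9.60, 7.62, 11.7 and 25.4 in SOD1G93A/Clec7a-KO. All 4 SOD1G93A/Clec7a-KO libraries exceeded all Clec7a-KO libraries, which were also below the nTg libraries. For Ccnf edgeR gave a log2 fold change 2.10, SE 0.45, adjusted p = 0.0143, for which no alternative ended the call, and 0.57, SE 0.38, adjusted p = 0.626 in the Clec7a-intact pair. The share of precursor-like cells in the dividing cluster led by Prc1 and Pbk moved with it, at 3.02% ± 1.12 (SD, n = 3) in nTg, 0.906% ± 0.702 (SD, n = 4) in Clec7a-KO, 6.2% ± 1.39 (SD, n = 3) in SOD1G93A and 4.86% ± 2.86 (SD, n = 4) in SOD1G93A/Clec7a-KO, and its part in the result was not tested.

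Hnrnpa1 rose in precursor-like cells of the Clec7a-lacking pair. It was at 260.1, 236 and 273 CPM in the nTg libraries, 330.2, 378 and 356 in SOD1G93A, 191, 219.8, 205 and 268 in Clec7a-KO and 368, 256, 382 and 380.3 in SOD1G93A/Clec7a-KO. SOD1G93A/Clec7a-KO replicate 2 was the only transgenic library within the range of the others. The change was log2 fold change 0.65, SE 0.16, adjusted p = 0.024, and the call was lost without SOD1G93A/Clec7a-KO replicate 1, 3 or 4 or Clec7a-KO replicate 1, 2 or 3 (adjusted p 0.0512 to 0.0757). The Clec7a-intact pair gave 0.47, SE 0.18, adjusted p = 0.26, with no overlap and a call made under the library number as covariate (adjusted p = 0.0258). The 12 microglial markers in precursor-like cells summed to 92.6 to 139 CPM in nTg, 105 to 379 in Clec7a-KO, 326 to 395 in SOD1G93A and 294 to 422 in SOD1G93A/Clec7a-KO, and 4 and 2 of 11 tested were called higher in the 2 pairs. Their part in the result was not tested.

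No member was called in endothelial-like, ependymal-like or mural-like cells, where few genes of any kind were. In endothelial-like cells 0 of 28 members were called by edgeR in either pair, with 2 and 2 at an unadjusted p under 0.05 and 0 and 0 by DESeq2, beside 0.71% and 0.863% of all genes. In ependymal-like cells it was 0 of 28, with 1 and 4 at an unadjusted p under 0.05 and 0 by DESeq2, beside 1.06% and 1.47%, and in mural-like cells 0 of 20, with 0 and 2 and 0 by DESeq2, beside 0.104% and 0.637%. Nefh in endothelial-like cells came closest, with a log2 fold change of -2.15 and an adjusted p = 0.0683 in the Clec7a-intact pair. In ependymal-like cells, where Chchd10, Anxa11 and Stmn2 are abundant, members' log2 fold changes lay between -0.66 (Kif5a) and 0.51 (Stmn2) in that pair and between -1.13 (Kif5a) and 0.47 (Stmn2) in the Clec7a-lacking pair. In the latter the range was -1.73 (Kif5a) to 0.42 (Ang) in endothelial-like and -1.20 (Tbk1) to 0.23 (Nek1) in mural-like cells.

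Loss of Clec7a left no member called in any class, with or without the transgene. SOD1G93A/Clec7a-KO against SOD1G93A gave 0 of 31 members in microglia-like cells by edgeR, 2 at an unadjusted p under 0.05 and 0 by DESeq2, and 0.0184% of all genes were called. Clec7a-KO against nTg gave 0, 2 and 0, with 0.0306% of all genes. In astrocyte-like cells the counts were 0, 1 and 0 (0.0156% of all genes) with the transgene and 0, 0 and 0 (0%) without it, and in oligodendrocyte precursor-like cells 0, 2 and 0 (0.00755%) and 0, 2 and 0 (0.0151%). In endothelial-like cells they were 0, 1 and 0 (0.00764%) and 0, 0 and 0 (0%), in ependymal-like cells 0, 2 and 0 (0.0326%) and 0, 0 and 0 (0.0261%), and in mural-like cells 0, 2 and 0 (0.247%) and 0, 1 and 0 (0%).

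In microglia-like cells, members' log2 fold changes ran from -0.61 (Kif5a) to 0.62 (Anxa11) for SOD1G93A/Clec7a-KO against SOD1G93A and from -0.40 (Unc13a) to 0.53 (Anxa11) for Clec7a-KO against nTg. In astrocyte-like cells the ranges were -0.95 (Kif5a) to 1.00 (Ang) and -0.29 (Optn) to 1.42 (Ang), in precursor-like cells -0.41 (Erbb4) to 0.50 (Ewsr1) and -1.59 (Ccnf) to 1.64 (Ang), and in mural-like cells -1.09 (Tbk1) to 1.02 (C9orf72) and -0.73 (Chchd10) to 0.53 (Tbk1). Endothelial-like and ependymal-like members stayed within -0.64 (Kif5a) and 0.60 (Nefh), both in endothelial-like cells with the transgene. Dctn1 had the smallest p of the members in microglia-like cells in both contrasts, with 0.41, SE 0.15, adjusted p = 0.442 and 0.50, SE 0.15, adjusted p = 1. In astrocyte-like cells Kif5a came first with the transgene (-0.95, SE 0.37, adjusted p = 0.458), and in precursor-like cells Ccnf came first without it (-1.59, SE 0.45, adjusted p = 0.607).

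Whether the transgene's effect differed with and without Clec7a was tested as an interaction. No member was called in any of the 6 classes by edgeR or DESeq2, and at an unadjusted p under 0.05 there were 0 in microglia-like, 3 in astrocyte-like, 1 in oligodendrocyte precursor-like, 0 in endothelial-like, 0 in ependymal-like and 1 in mural-like cells. The share of all genes called was 0% in 5 classes and 0.00652% in ependymal-like cells. Thus the members called in only one pair were not shown to differ between pairs. The largest of the 3 astrocyte-like differences by p was Anxa11 (-1.23, SE 0.48, adjusted p = 1), followed by Stmn2 (-0.74, SE 0.34, adjusted p = 1) and Kif5a (-0.95, SE 0.45, adjusted p = 1), in precursor-like cells Ccnf gave 1.54, SE 0.60, adjusted p = 1, and in mural-like cells Tbk1 gave -1.61, SE 0.55, adjusted p = 1.

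Genes that work with the members were counted in 8 lists of 110 genes. In microglia-like cells 25 of 109 tested were called higher and 7 lower in the Clec7a-intact pair, and 35 and 19 in the Clec7a-lacking pair, or 29.4% and 49.5% of the tested, beside the background given above. Cofactors of Vcp leaned upward, with 5 and 6 of 10 higher and 0 lower in the 2 pairs, led by Ubxn1 (log2 fold change 1.00, SE 0.15, adjusted p = 0.000159, and 1.12, SE 0.13, adjusted p = 9.42e-06). Subunits of ESCRT-III, which cuts membranes in endosomes, and partners of Fig4 gave 5 and 7 of 12 higher and 0 lower, led by Vac14 (0.74, SE 0.13, adjusted p = 0.00058) and Chmp2a (0.82, SE 0.10, adjusted p = 1.13e-05). Dynactin and dynein subunits gave 5 and 7 of 14 higher and 0 lower, led by Dctn3 (0.92, SE 0.19, adjusted p = 0.00178, and 1.02, SE 0.16, adjusted p = 0.00016). The median log2 fold change of these lists was 0.47 and 0.42, 0.39 and 0.41, and 0.38 and 0.42, beside 0.01 and 0.00 over all genes.

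Actin monomer-binding genes gave 2 higher and 1 lower of 10 in the Clec7a-intact pair and 5 higher and 1 lower in the other, with medians of 0.23 and 0.40, led by Tmsb4x at 0.62 and Tmsb10 at 1.67 and, downward, Pfn2 at -0.84 and -0.85. Autophagy machinery gave 5 higher and 1 lower of 24 in the Clec7a-intact pair and 7 higher and 4 lower in the other, with Atg7 at 0.98 and Gabarapl1 at 1.13 as the largest rises and Atg14 at -0.74 and Rb1cc1 at -0.71 as the largest falls. Partners of C9orf72 and Tbk1 gave 2 higher of 6 and then 2 higher and 3 lower, with the adaptor Tank at 0.64 and 0.68 and Smcr8, which binds C9orf72, at -0.74. The hnRNP family and stress granule proteins gave 0 higher and 1 lower of 21 and then 0 and 3, led by Hnrnph1 at -0.85 and -1.14. Neuronal cytoskeleton gave 1 higher and 4 lower of 12 and then 1 and 8, led upward by Stmn1 at 1.48 and 1.44 and downward by Nefl at -2.01 and Nefm at -2.79, the falls in the same direction as the neuron markers above, 1 of which, Tubb3, is also in this list.

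In astrocyte-like cells the actin monomer-binding list, in which Pfn1's partners stand, gave 6 and 7 of 10 higher and 0 lower, led by Tmsb4x at 2.12 (SE 0.29, adjusted p = 4.19e-05) and 2.22 (SE 0.26, adjusted p = 4.43e-06). Tmsb4x is abundant in microglia, whose markers rose in the same cells, and the part of microglial RNA in the rise of this list was not tested. The hnRNP list gave 4 higher and 5 lower of 21 in the Clec7a-intact pair and 2 higher and 6 lower in the other, with Hnrnpab at 0.59 and Pabpc1 at 1.06 as the largest rises and Atxn2l at -0.97 and Tial1, the close relative of Tia1, at -0.84 as the largest falls. Vcp cofactors gave 1 higher of 10 in each pair, Nploc4 at 0.79 and 0.87. Neuronal cytoskeleton gave 3 higher and 4 lower of 12 in each pair, with Gap43 at 1.94 and 1.23 as the largest rise and Ina at -1.93 and Nefl at -2.37 as the largest falls. Autophagy machinery gave 3 higher and 2 lower of 24 and then 4 and 2, with Map1lc3a at 0.90 and Atg7 at 0.84 upward and Atg16l1 at -0.82 and Rb1cc1 at -0.78 downward. Dynactin and dynein subunits gave 1 higher and 1 lower of 14 and then 2 and 0, with Dctn3 at 0.78 and 0.50 and Dctn4 at -0.49. ESCRT-III and Fig4 partners gave 3 higher of 12, led by Chmp3 at 0.77, and then 0, and partners of C9orf72 and Tbk1 gave 0 of 6 in both. Over all 8 lists 21 were higher and 12 lower of 109 in the first pair, and 19 and 12 in the second, or 30.3% and 28.4% of the tested, beside the 17.4% higher and 15.2% lower, and 18.6% and 15.6%, of all genes.

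Promoter sequence was set beside the members' calls. RefSeq promoter windows of GRCm38.p6, which run from 250 bases before to 50 bases after the start site, matched 26 of 32 members with 29 windows. Motifs were searched on both strands: the E-box CACGTG of lysosomal gene regulators, the antioxidant response core TGACNNNGC and the interferon-stimulated core, which is TTTCNN followed by TTTC. These were found in 7.15%, 12.4% and 3.44% of all 32851 promoters of that length and in 2 of 29 member promoters each (6.9%). The windows of Tbk1, Vcp, Taf15 and Unc13a are shown since each holds a match and each gene was called, with matches in capitals and read 5′ to 3′ on the gene's strand.

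Taf15 promoter (chr11:83472858-83473157, plus strand): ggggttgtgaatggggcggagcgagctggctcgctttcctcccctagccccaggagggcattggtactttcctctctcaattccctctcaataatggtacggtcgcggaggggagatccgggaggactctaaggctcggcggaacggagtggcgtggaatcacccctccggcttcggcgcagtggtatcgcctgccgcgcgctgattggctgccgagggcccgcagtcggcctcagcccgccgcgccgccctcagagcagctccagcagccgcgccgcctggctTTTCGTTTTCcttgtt
Tbk1 promoter (chr10:121586745-121587044, minus strand): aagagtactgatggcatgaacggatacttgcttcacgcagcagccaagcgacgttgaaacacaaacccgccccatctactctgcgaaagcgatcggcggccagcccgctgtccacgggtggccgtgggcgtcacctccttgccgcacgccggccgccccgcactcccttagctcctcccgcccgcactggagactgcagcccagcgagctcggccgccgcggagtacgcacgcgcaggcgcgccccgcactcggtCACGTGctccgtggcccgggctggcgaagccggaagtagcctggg
Vcp promoter (chr4:43000458-43000757, minus strand): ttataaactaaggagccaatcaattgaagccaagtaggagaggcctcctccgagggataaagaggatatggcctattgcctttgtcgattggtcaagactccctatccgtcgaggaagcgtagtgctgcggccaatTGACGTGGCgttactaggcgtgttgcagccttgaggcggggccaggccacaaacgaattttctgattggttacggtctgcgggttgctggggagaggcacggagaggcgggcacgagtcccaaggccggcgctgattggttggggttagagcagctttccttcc
Unc13a promoter (chr8:71671708-71672007, minus strand): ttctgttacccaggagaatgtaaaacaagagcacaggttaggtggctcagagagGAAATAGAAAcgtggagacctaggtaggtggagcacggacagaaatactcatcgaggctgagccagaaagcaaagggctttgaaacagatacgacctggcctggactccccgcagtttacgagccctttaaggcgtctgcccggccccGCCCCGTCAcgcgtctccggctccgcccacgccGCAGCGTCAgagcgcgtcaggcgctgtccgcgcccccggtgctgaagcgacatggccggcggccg

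In the Tbk1 window the E-box starts at base 256, just past the start site. In that of Vcp the antioxidant core starts at base 137, and in that of Taf15 the interferon core starts at base 285. The Unc13a window holds 2 antioxidant cores at bases 203 and 236 and an interferon core at base 55, all on the opposite strand. No 2 printed matches overlap. Atxn2, called in no class, is the other member with an E-box. Matr3, Ubqln2, Kif5a, Nefh, Stmn2 and Nek1 had no entry in the table. A match describes letters in the window, not a site of binding.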

How the data were processed

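Single-cell RNA sequencing of whole spinal cord was analysed from the deposited matrices, 1 per library, which hold whole-number UMI counts per gene and barcode, not normalized. The submitters' processing notes name Cell Ranger, Seurat, DESeq2 and mm10, and the matrix headers give software version 3.0.2, per the file headers. Per the labels' protocols, cords were perfused, dissociated with enzymes and freed of myelin with beads before capture on the 10x Genomics system. How the authors called cells and whether counting used strand are not given in the sources used here.

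A barcode was kept from 500 genes and 1000 UMIs upward, with mitochondrial UMIs at 15% or less. These limits removed 7127 barcodes for depth and 4963 for mitochondrial share. Doublets were called by Scrublet score, the top 0.8% per 1000 barcodes of a library, and removed (7046). Cells were clustered with scanpy 1.11.5 into 29 clusters (Leiden resolution 1.0, 15 neighbours, 30 components of 2000 variable genes, no integration of libraries), which were named from fixed markers, so the classes are rebuilt and can differ from the authors'.

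UMIs were summed per library and class. Classes with at least 20 cells in every library were fitted with edgeR 4.0.16 (R 4.3.3; TMM factors, filterByExpr, quasi-likelihood test, all 14 libraries in 1 fit). Benjamini-Hochberg adjustment covered all genes of a class, and genes that failed the low-count filter were not tested. Each SE was derived from the test, as the absolute log2 fold change divided by the square root of the F statistic. Scripts were tested on simulated data. The labels number the libraries of a group but name no animals, so p-values measure the spread between libraries, which may be technical. Replicate numbers are shared by the groups, but no label ties them to a litter or day. Same-numbered libraries deviated together unevenly (correlations from -0.268 to 0.515 over all same-numbered pairs), so they were not treated as pairs. Median mitochondrial shares were 1.47% to 2.15% in SOD1G93A, 0.889% to 1.58% in SOD1G93A/Clec7a-KO, 2.61% to 4.46% in nTg and 1.90% to 4.60% in Clec7a-KO. They were lower in every SOD1G93A library than in every nTg library, and in every SOD1G93A/Clec7a-KO library than in every Clec7a-KO library, and their part in the results was tested only through the limit of 5%.

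Alternatives were DESeq2 1.42.0, RLE factors, no low-count filter, a replicate block, the library number or Xist above Ddx3y as covariate, doublets kept, Leiden resolution 0.5, a mitochondrial limit of 5% and leaving out each of 14 libraries. The members, gene lists and tests were chosen with earlier results of these data known. Per-library values are given for at most 16 called members, ordered by role and largest called change, for Chchd10 and Ang, chosen after their values were seen, and partner lists in microglia-like and astrocyte-like cells are given with the called gene of the largest change in each direction. Gene positions are from GENCODE vM21 (GRCm38), and promoter windows from RefSeq (GRCm38.p6).
All sample columns were used (0 were left out). Reads of Hnrnpa1 and Ang can be shared with near-identical copies, and Ang shares a locus with Rnase4.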

Additional observations from a re-analysis of the deposited data

Results flagged for a closer look

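In groups of 4 libraries, a library was listed where its gap to the nearest other, over the group's range, passed Dixon's 95% critical value. This held for 10 of 68 groups of called members, where chance gives about 1 in 20.

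Clec7a-KO replicate 4 was high for Vcp, Sqstm1 and Vapb in microglia-like cells. Vcp was at 238 CPM there against 153 to 162 in the other libraries of its group, Sqstm1 at 354 against 196 to 221, and Vapb at 63.0 against 41.6 to 42.6. In astrocyte-like cells the same library was at 184 CPM for Vcp against 152 to 157, and at 271 for Pfn1 against 121 to 135.

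Clec7a-KO replicate 1 stood apart for 3 members. In astrocyte-like cells Matr3 was at 101 CPM there against 113 to 114, and Kif5a at 65.7 against 29.9 to 32.5. In microglia-like cells Stmn2 was at 3.67 CPM against 1.47 to 1.74.

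In the SOD1G93A/Clec7a-KO group, replicate 1 had Erbb4 at 0.225 CPM in microglia-like cells against 0.0607 to 0.0723. Replicate 2 had Hnrnpa1 at 256 CPM in oligodendrocyte precursor-like cells against 368 to 382.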

How the results depend on the processing

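Of 52 calls of a member in a class and contrast, 19 held in each of the 22 or 23 alternatives that gave a value, 33 were lost in at least 1 and 0 changed direction. The mitochondrial limit of 5% gave no value for Anxa11, Nefh and Ang in astrocyte-like cells. Among the 16 combinations named without a call, 1 changed direction: Stmn2 in astrocyte-like cells of the Clec7a-lacking pair had a log2 fold change of -0.21 with doublets kept. In microglia-like cells the 8 calls of the Clec7a-intact pair became 3 with no filter on low counts, 14 with the library number as covariate and 4 with the Xist covariate, and 3 to 10 without 1 library each (5 or fewer without any 1 of the SOD1G93A or nTg libraries). The 15 calls of the Clec7a-lacking pair became 9 to 16 without 1 library each (9 without SOD1G93A/Clec7a-KO replicate 3 and without Clec7a-KO replicate 1). Summed over the other classes, the 13 calls of the Clec7a-intact pair became 7 with the Xist covariate, 7 with the mitochondrial limit of 5%, and 6 to 14 without 1 library each (6 without SOD1G93A replicate 3, 7 without nTg replicate 1 and 8 without nTg replicate 2). The 16 of the Clec7a-lacking pair became 9 with the mitochondrial limit of 5%, and 12 to 18 without 1 library each. The cause was not tested. With no filter on low counts, SOD1G93A/Clec7a-KO against SOD1G93A gave 1 call in the other classes (Kif5a in astrocyte-like cells) and Clec7a-KO against nTg gave 1 (Ccnf in oligodendrocyte precursor-like cells), in place of 0 and 0. With the replicate block, the counts for the 2 pairs were 10 and 16 in microglia-like cells and 14 and 18 in the other classes, and the Clec7a contrasts stayed at 0. The block ended the calls of C9orf72 in microglia-like and Hnrnpa1 in astrocyte-like cells of the Clec7a-intact pair, and made calls of Vcp, Vapb and Kif5a in microglia-like cells of that pair. The 1254 neuron-like cells did not reach 20 in every library, so the class was not tested between groups.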
